A study of Caenorhabditis elegans with 24 samples.

Results

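The genes described here are the 200 whose mRNA signal varied most among 4-cell Caenorhabditis elegans embryos whose parents and grandparents had all been kept at 20 °C. Members were chosen by measured values, as follows. Probes with a WBGene ID number above 7000 that were well above background on all 12 such arrays were ranked by their standard deviation (SD) over the authors' deposited log2 values. This filter left 6335 of 15208 probes, and the first 200 are the members. The ranking used the variation within and between these 12 arrays, so that variation is described here and not tested. The other 12 arrays took no part in the choice. The 20 °C arrays that chose the members do form 1 side of every comparison by temperature, so the sizes of those differences are partly set by the choice.

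Embryos came from N2, the standard laboratory strain, and from HC445, which carries sid-1(qt9) and is suspected by the submitters to lack haf-6. In generation 2 the mothers had grown at 25 °C or at 20 °C, with grandparents at 20 °C. In generation 3 the grandparents had grown at 25 °C or at 20 °C, and all mothers at 20 °C. Each of the 8 groups held 3 separately collected samples of 50 embryos, all from worms fed Bacillus subtilis in place of the usual Escherichia coli. The labels do not say whether the 3 samples of a group stem from different cultures. A p-value here therefore weighs differences only against the spread among samples, part of which may be technical.

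A C. elegans embryo at the 4-cell stage holds mostly mRNA that its mother loaded into the egg, and transcription of its own genome is only beginning. Maternal transcripts are cleared while early zygotic transcripts appear, so their levels can change quickly around this stage. SID-1 is a membrane protein that lets double-stranded RNA into cells, and haf-6 encodes an ABC transporter needed for efficient RNA interference in worms. The reference table pairs none of the array's IDs with a gene name, so the members are given by ID, without a role, and the embryonic stage was not checked against marker genes.

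Between 9109 and 13075 probes per array were well above background. The replicate number of a sample matched its scan day for all 24 arrays, and those numbered 2 were scanned first. All 4 replicate-3 arrays with a 25 °C ancestor lay on 1 slide of 4 arrays. Of the 6 arrays with a spike-in note in their label, 5 had a 25 °C ancestor. An array-quality fit gave the lowest weight, 0.277, to replicate 3 of N2 embryos from 20 °C mothers, against 0.651 for the next lowest. In these pooled embryos, fewer cells that hold a transcript and less of it per cell cannot be told apart.

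The members were also variable on the 12 arrays with a 25 °C mother or grandparent, which the ranking had not used. Their median SD there was 0.987 log2 units, against 0.287 for the other 6135 probes that met the filter. On the 12 arrays used for the ranking, the members had a median SD of 1.26 (range 1.05 to 2.39), against 0.269 for the other probes. On the 25 °C-ancestor arrays all but 1 of the 200 members lay above the median of the other probes, and 78 were again among the 200 most variable. In 38 members the SD was at least as large there as on the 20 °C arrays. With the group means removed, the median SD on the 25 °C-ancestor arrays was 0.996 for members and 0.250 for the other probes.

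The ranking had no natural edge. The last 2 members, WBGene00008448 and WBGene00017836, had SDs of 1.0458 and 1.0457. The first probes left out, WBGene00013477 and WBGene00008584, had 1.0446 and 1.0417.

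**Figure D1:**
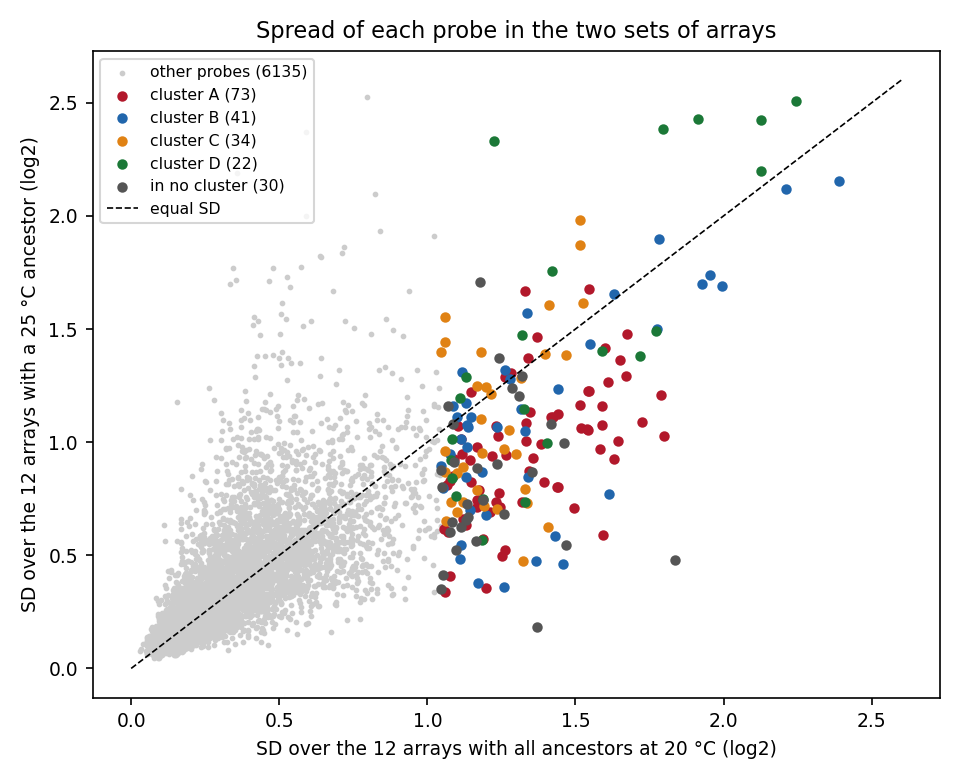
Each point is 1 of the 6335 probes that met the filter, with its SD (log2) over the 12 arrays with all ancestors at 20 °C on the horizontal axis and over the 12 arrays with a 25 °C ancestor on the vertical axis. Members are coloured by cluster and the other 6135 probes are grey. The members start at 1.05 on the horizontal axis because that axis chose them, and they spread widely on the vertical axis, with a median of 0.987 against 0.287 for the grey points.

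Members were dimmer than most probes of the filter, with a median deposited level of 9.75 log2 against 14.54. Between the quartiles of the members' level, 8.79 and 10.93, 100 members had a median SD of 0.945 on the 25 °C-ancestor arrays, against 0.514 for 1083 other probes in the same band. The scanner software's own error estimate had a median of 10.1% of signal for members and 10.0% for the other probes. Its 95th percentile was 14.9% for members, 18.9% in cluster D (defined below) and 11.5% for the other probes. None of the 4800 member spots was saturated, and 72 were marked as outliers. On all 24 arrays 166 members were well above background, and the other 34 were not so on 1 to 5 of the 25 °C-ancestor arrays.

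A few libraries carried much of the variation. Replicate 2 of N2 embryos from 20 °C grandparents was the array farthest from a member's mean for 64 of 200 members, and replicate 3 of N2 embryos from 20 °C mothers for 51. Without the array of replicate 2 in the 20 °C-grandparent group, a new ranking shared 169 of its 200 probes with the members. Without the array of replicate 3 in the 20 °C-mother group it shared 172. Leaving out any other array kept 183 to 192. In 22 members 1 array held over 50% of the squared deviations.

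Most members varied together in a few blocks. On the 20 °C arrays the first principal component of the members held 45.1% of their variance, and the next held 19.2%, 11.1% and 7.90%. Average-linkage clustering on 1 minus Pearson's r, divided at a height of 0.5, gave 4 clusters of 10 or more members. They are called A (73 members), B (41), C (34) and D (22), and 30 members fell in none. These clusters were built from the 20 °C arrays, so their tightness there is part of their construction.

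The same blocks could be seen on the 12 arrays with a 25 °C ancestor, which took no part in the clustering. The mean pairwise r over those 12 arrays was 0.593 in cluster A, 0.468 in B, 0.351 in C and 0.612 in D. It was 0.084 over all 200 members and 0.0058 over the other 6135 probes. The points of each such correlation share the same 12 libraries, and any library-wide effect enters every pair. On these arrays 71 of 73 members of A, 40 of 41 of B, 29 of 34 of C and 22 of 22 of D correlated better with the mean of their own cluster than with that of any other.

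**Figure D2:**
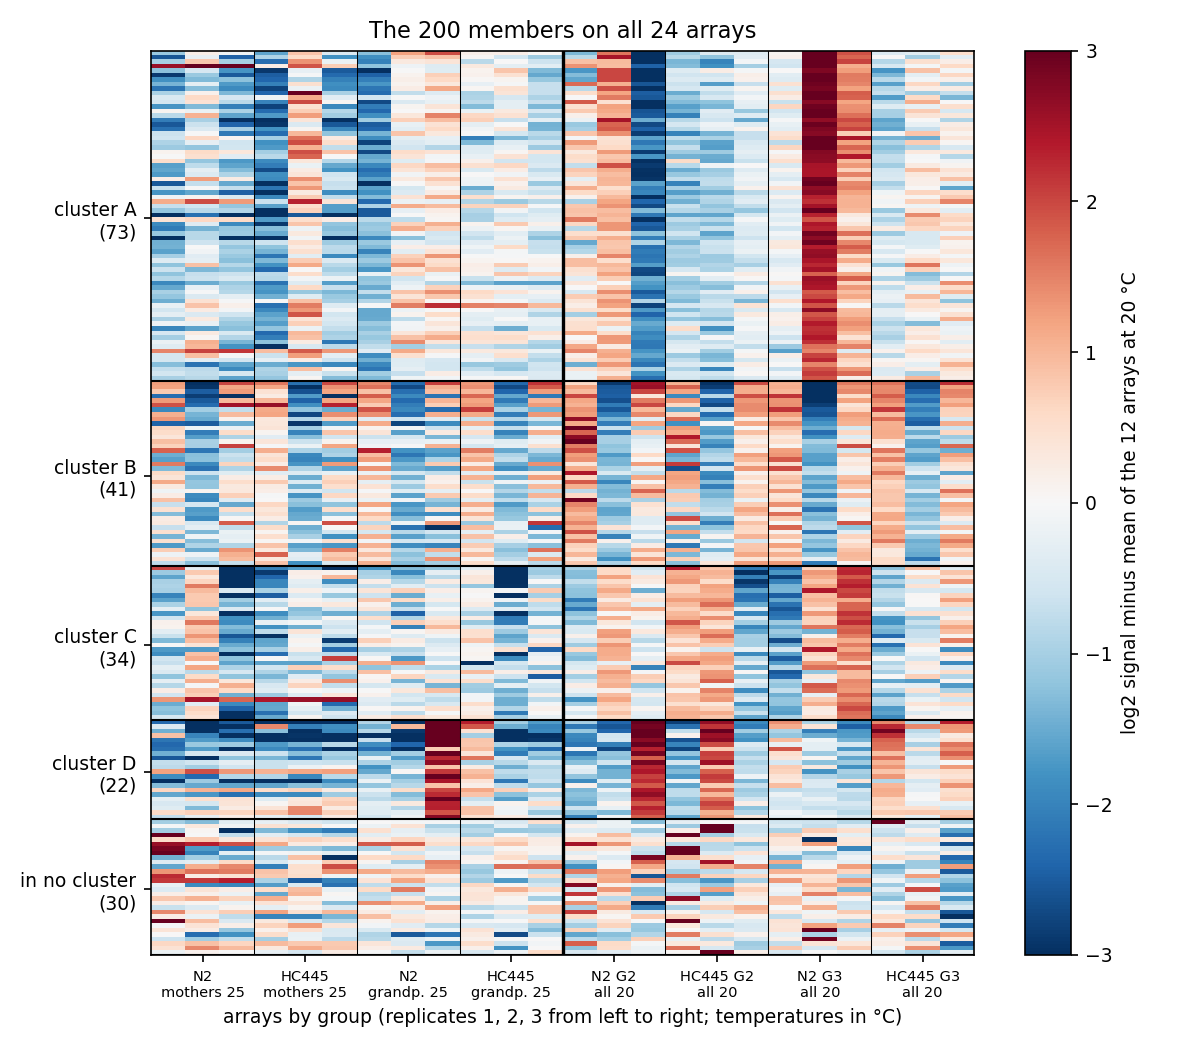
Rows are the 200 members by cluster and columns are the 24 arrays, with the 12 arrays that had a 25 °C ancestor left of the thick line and the 12 with all ancestors at 20 °C right of it. Colour is the deposited log2 signal minus the member's mean over the 12 arrays at 20 °C. Whole blocks of rows change colour together in single columns, among them cluster A in N2 replicate 2 from 20 °C grandparents and cluster D in N2 replicate 3 from 25 °C grandparents.

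Cluster A had both its highest and its lowest array among N2 embryos. Its mean deposited log2 level was 8.25, 9.99 and 10.17 in replicates 1 to 3 of N2 embryos from 25 °C grandparents, against 9.72, 12.43 and 11.03 in N2 embryos from 20 °C grandparents. In N2 embryos it was 8.84, 9.65 and 8.88 from 25 °C mothers, against 10.04, 10.92 and 7.57 from 20 °C mothers. Replicate 2 of the 20 °C-grandparent group was thus the highest of the 24 arrays, replicate 3 of the 20 °C-mother group was the lowest, and the 25 °C and 20 °C groups overlapped in both generations.

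In HC445 the mean of cluster A was 9.62, 9.79 and 9.33 with 25 °C grandparents, against 9.23, 9.98 and 9.98 with 20 °C grandparents. With 25 °C mothers it was 8.06, 10.43 and 8.87, against 8.94, 8.95 and 9.52 with 20 °C mothers. These groups also overlapped. The member closest to the mean of cluster A on the 20 °C arrays, WBGene00013181, had deposited values of 5.92, 9.17 and 9.05 in N2 embryos from 25 °C grandparents, against 8.58, 11.37 and 10.01 in N2 embryos from 20 °C grandparents.

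Cluster B followed the scan day. The 8 arrays with replicate number 2 had cluster means of 9.40 to 10.00, whatever their strain, generation or temperature, and the other 16 arrays had 10.80 to 12.51, with no overlap. Replicate number accounted for a median of 65.8% of the variance of its members on the 25 °C-ancestor arrays, against 32.2% for the other 6135 probes. On the 20 °C arrays it accounted for 73.4%. Scan day and replicate number are the same division of the arrays, so what else the samples of 1 number shared cannot be told apart from the scan.

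WBGene00016985, the member with the largest SD of all 200, belongs to cluster B. Its deposited values were 12.65, 8.02 and 13.41 in replicates 1 to 3 of N2 embryos from 25 °C mothers, against 11.995, 8.50 and 13.90 from 20 °C mothers. In HC445 they were 12.97, 9.15 and 13.39 from 25 °C mothers, against 12.44, 8.44 and 13.34 from 20 °C mothers. Replicate 2 was far below the other replicates in each of these groups. In N2 the limma log2 fold change for 25 °C against 20 °C mothers was -0.20 ± 1.83 (SE), with an adjusted p of 0.977. None is given for HC445, where an outlier spot was dropped in the fit. That spot was replicate 2 from 25 °C mothers, 1 of the low arrays. The centres of the cluster, WBGene00018859 and WBGene00020419, had adjusted limma p-values of 0.733 and 0.977 with both strains together. Their standard errors were 0.80 and 0.98. That fit held no term for scan day, so the gap between scan days entered these errors. The p-values thus do not show that a response was absent.

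Cluster C had no single dominant array. Its highest mean level, 11.54, was in replicate 3 of N2 embryos from 20 °C grandparents and its lowest, 7.89, in replicate 3 of N2 embryos from 25 °C mothers. Of its members, WBGene00012792 and WBGene00018828 lay closest to the cluster mean. WBGene00012792 had deposited values of 8.56, 11.30 and 6.50 in N2 embryos from 25 °C mothers, against 9.28, 11.53 and 10.43 in N2 embryos from 20 °C mothers. The groups overlapped, because replicate 2 was high in both.

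Cluster D was low on most arrays and very high on a few. Its mean level was between 8.31 and 8.81 on all 6 arrays from 25 °C mothers. Among the 6 arrays from 20 °C mothers it was 12.35 in N2 replicate 3 and 11.63 in HC445 replicate 2, and 8.42 to 8.87 in the other 4. Apart from those 2 arrays the 20 °C-mother group thus overlapped the 25 °C-mother group.

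In generation 3, cluster D had means of 8.75, 8.46 and 12.31 in N2 embryos from 25 °C grandparents, against 9.95, 9.17 and 8.68 from 20 °C grandparents. In HC445 it had 10.38, 8.45 and 8.67 with 25 °C grandparents, against 10.97, 9.62 and 10.64 with 20 °C grandparents. The high arrays thus came from both strains, both generations, both temperatures in generation 3 and all 3 scan days. WBGene00008724, second in SD among the 200 and a member of D, spanned 3.83 to 12.47 on the 25 °C-ancestor arrays and 6.67 to 13.46 on the 20 °C arrays. It was not well above background on 2 of the 6 arrays from 25 °C mothers.

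**Figure D3:**
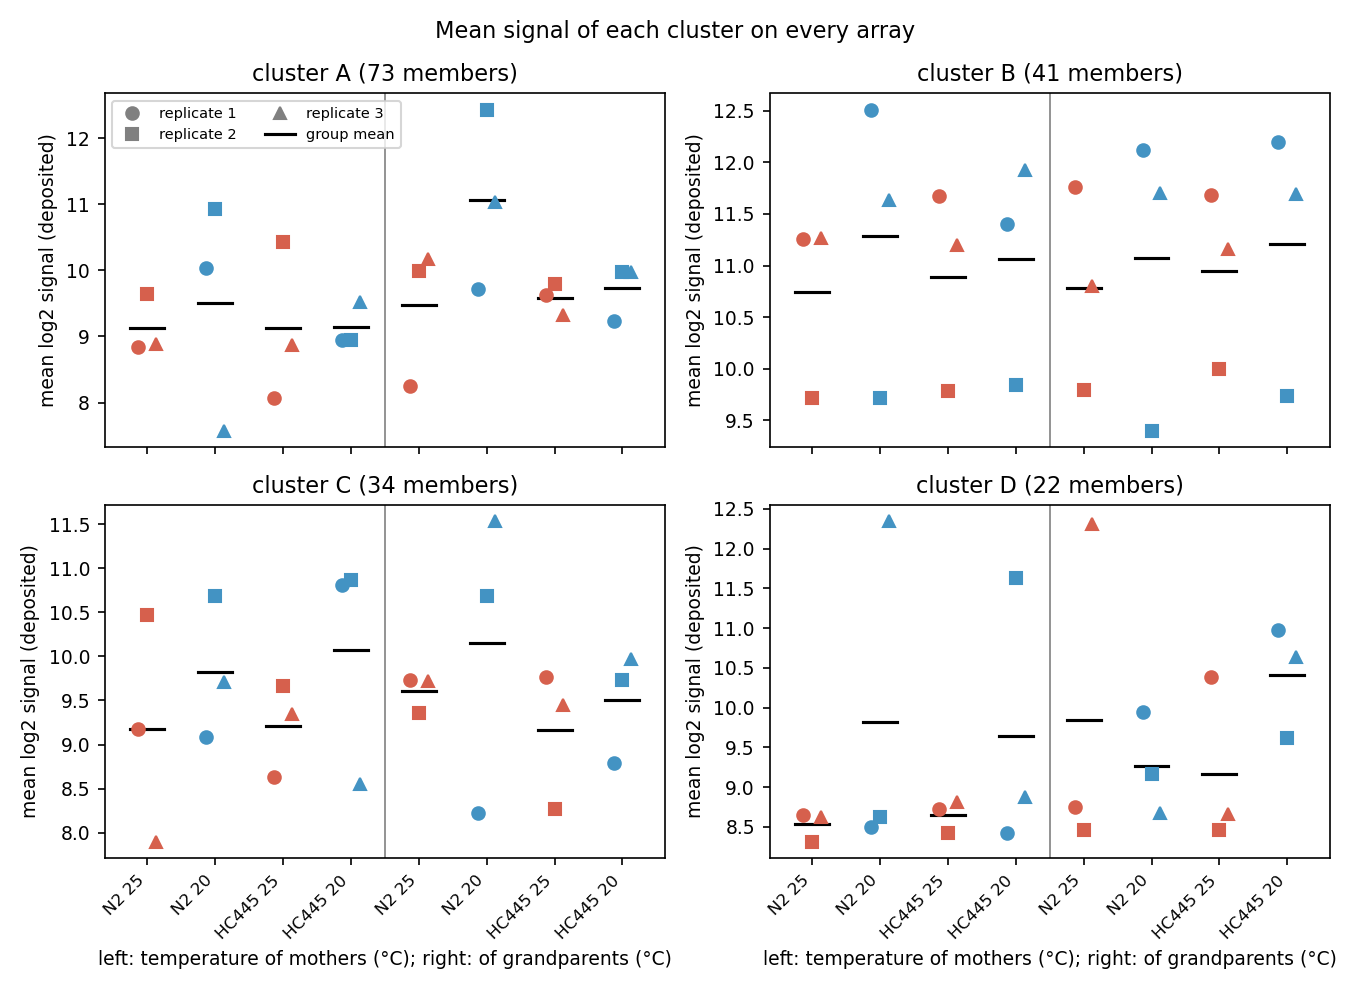
Each point is the mean deposited log2 signal of the members of 1 cluster on 1 array, red for a 25 °C ancestor and blue for all ancestors at 20 °C, with the symbol giving the replicate number and the bar the group mean. The left 4 columns of each panel are generation 2, by temperature of the mothers, and the right 4 are generation 3, by temperature of the grandparents. In cluster B every square (replicate 2) lies below all other points, and in cluster D 8 of 24 arrays exceed 9.5 while 15 lie below 9.

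The clusters did not simply mirror each other. Between cluster means, Pearson's r was -0.76 over the 12 arrays with a 25 °C ancestor and -0.42 over the 12 arrays at 20 °C for A and B. For A and D it was 0.29 on the 25 °C-ancestor arrays and -0.61 on the 20 °C arrays. These coefficients describe 12 points each, which share libraries and scan days.

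The members were spread over the array, and few had neighbouring IDs. The 200 spots lay in 124 different rows of the array. Only 4 pairs of members carried consecutive WBGene numbers. In each pair both members fell in the same cluster, and over the 25 °C-ancestor arrays their r was 0.961, 0.888, 0.947 and -0.157.

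Among the 11437 tested probes that are not members, 58 correlated with the mean of cluster A at r above 0.8 on both sets of 12 arrays. There were 68 such probes for cluster B, 11 for C and 90 for D. The partners of D included all 17 tested probes with IDs between WBGene00003424 and WBGene00003470, a run singled out after its values were seen. IDs up to 7000 could not be members by the rule. The mean of these 17 probes correlated with the mean of cluster D at r = 0.957 over the 25 °C-ancestor arrays and 0.952 over the 20 °C arrays. Their mean level was 13.63 in N2 replicate 3 from 25 °C grandparents and 13.46 in N2 replicate 3 from 20 °C mothers, and at most 11.67 on the other 22 arrays. Apart from the first of these, the mean was 6.30 to 8.52 on the 25 °C-ancestor arrays, and no r without that array is given. Per array, 9 to 17 of the 17 probes were well above background.

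**Figure D4:**
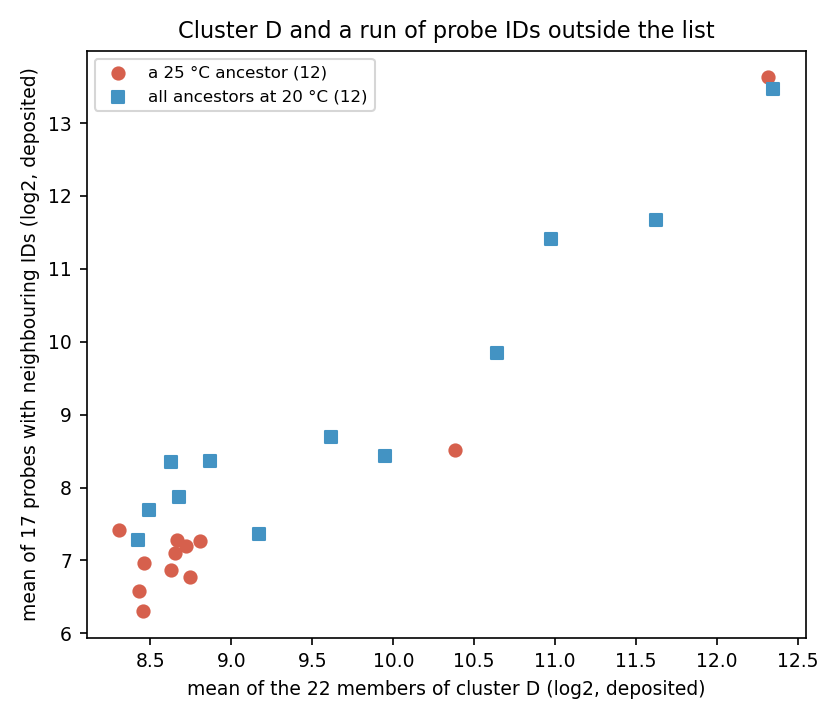
Each point is 1 array, with the mean deposited log2 signal of the 22 members of cluster D on the horizontal axis and that of 17 probes with neighbouring IDs outside the list on the vertical axis. Circles are the 12 arrays with a 25 °C ancestor and squares the 12 with all ancestors at 20 °C. The 2 arrays at the upper right, 1 of each kind, are the highest on both axes. They stand at 12.35 and 12.31 on the horizontal axis, where the next array is at 11.63. On the vertical axis they stand at 13.46 and 13.63, where the next is at 11.67.

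Whether the members responded to the temperature of the mothers was tested on the scaled log2 signal, which is the log2 of the scanner's processed signal minus each array's 75th percentile. Limma was fitted to all 24 arrays and 11637 probes, and a probe was called at an adjusted p under 0.05. With mothers at 25 °C against 20 °C, both strains together, 17 of 200 members were called, 4 higher and 13 lower. This is 8.5% of the members, while 14% of all tested probes were called, and 17% of the other probes that met the filter. By direction, 2% of members were higher and 6.5% lower, against 5.45% and 8.52% of all tested probes.

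Large fold changes were common among the members, and so were large errors. A change of at least 2-fold was seen in 67 of 200 members (33.5%), against 11.7% of all tested probes. Their median log2 fold change was -0.52, against -0.07, and 154 of 200 were negative. Their median standard error was 0.59, against 0.22. These figures are a description, because the 20 °C side of the comparison is made of arrays whose spread helped to choose the members. Replicate 3 of N2 embryos from 20 °C mothers was the lowest of the 12 ranking arrays for 72 members and the highest for 31. The ranking also used the arrays from 20 °C grandparents, which are not part of this comparison. Among them, replicate 2 of N2 embryos was the highest of the 12 for 79 members. Only genes above background on all 20 °C arrays could be members, so a gene that rose from below background could not be among them. In 9 of the 17 called members at least 1 array with a 25 °C ancestor was not above background.

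The direction of the calls depended on the scaling. With quantile normalization 11 members were called, 5 higher and 6 lower (5.5%, against 14.5% of all tested probes). The authors' deposited values gave 12, 6 higher and 6 lower (6% against 14.4%). With normexp background correction and quantile normalization 10 were called, 5 in each direction (5% against 13.9%). Blocking on scan day (replicate number), 29 members were called, 6 higher and 23 lower, which is 14.5% of members against 22.9% of all tested probes. Without the arrays scanned first it was 9, 2 higher and 7 lower (4.5% against 7.67%). Slide as a random block gave 20, 2 higher and 18 lower, or 10% of members against 16.7% of all tested probes. Without the 6 spike-in arrays 5 were called, or 2.5% against 7.34%. Slide as a fixed block left 2, or 1% against 0.352%, which turned the order of the 2 shares round. In that fit an array alone on its slide adds nothing to a comparison. N2 replicate 3 and HC445 replicate 2 from 20 °C mothers were among such arrays. No slide held HC445 arrays from mothers at both temperatures, so the HC445 comparison ran through other groups.

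By cluster, 6 members of A were called (2 higher, 4 lower), none of B, 4 of C (1 higher, 3 lower), 2 of D (both lower) and 5 in no cluster (1 higher, 4 lower). The median log2 fold change was -0.48 in A, -0.33 in B, -1.19 in C and -1.34 in D. Leaving out 1 array at a time moved it over -0.87 to -0.20 in A, -0.80 to 0.058 in B, -1.58 to -0.76 in C and -1.81 to -0.48 in D. The median of A was -0.20 without HC445 replicate 1 from 25 °C mothers, and -0.87 without HC445 replicate 2 from 25 °C mothers or N2 replicate 3 from 20 °C mothers. That of C was -0.76 without N2 replicate 3 from 25 °C mothers. In B 1 of 41 members (2.44%, against 27.2% of all tested probes) had an unadjusted limma p under 0.05. Once scan day entered the fit as a block 6 were called, in a fit that called 22.9% of all tested probes.

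The median of cluster D rested on 2 arrays. Without N2 replicate 3 and HC445 replicate 2 of the embryos from 20 °C mothers it was 0.048. In that fit 4 members of D were called, 3 higher and 1 lower, and 11.2% of all tested probes. These arrays were left out because they were seen to be the highest of the 20 °C side. A rise of the median was thus built in, and neither it nor the calls are a test. Within scan days, the difference of the mean scaled log2 signal of D between 25 °C and 20 °C mothers was -0.06, -0.34 and -3.84 for replicates 1 to 3 of N2. It was -0.10, -3.43 and -0.14 for those of HC445. Only the pairs with those arrays differed by more than 0.34.

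**Figure D5:**
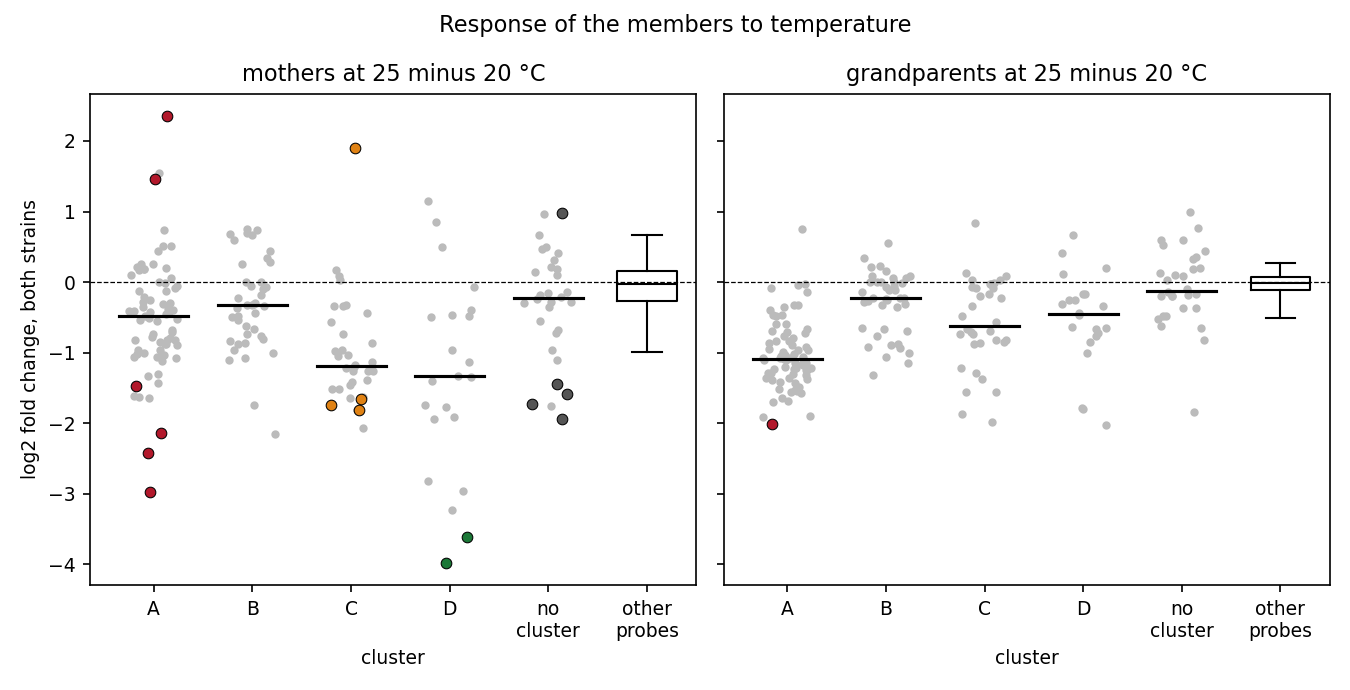
Points are the 200 members by cluster, with their log2 fold change for mothers (left) or grandparents (right) at 25 °C against 20 °C, both strains together. Filled colour marks an adjusted limma p under 0.05, grey the others, and bars are medians; the box at the right shows the other 6135 probes (quartiles, whiskers at the 5th and 95th percentiles). On the left 17 members are coloured and on the right 1, and cluster A lies lowest on the right with a median of -1.09.

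The largest rise was in WBGene00016669 of cluster A, ranked 19 by SD. Its scaled log2 signal was -3.37, -2.95 and -2.90 in N2 embryos from 25 °C mothers, against -4.47, -5.18 and -7.61 from 20 °C mothers. In HC445 it was -6.04, -4.23 and -5.25 from 25 °C mothers, against -7.21, -7.54 and -6.86 from 20 °C mothers. The arrays from 25 °C mothers lay above all those from 20 °C mothers of their strain, and the log2 fold change was 2.36 ± 0.56 (SE, adjusted p = 0.00577, limma). While the gene rose, 56 of the 73 members of its cluster had negative fold changes.

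The next rise, in WBGene00014144 of cluster C, was also without overlap in each strain. Its scaled log2 signal was -4.07, -3.05 and -3.72 in N2 embryos from 25 °C mothers, against -7.02, -4.39 and -5.36 from 20 °C mothers. In HC445 it was -3.12, -3.03 and -2.91 from 25 °C mothers, against -4.61, -4.10 and -5.86 from 20 °C mothers. The log2 fold change was 1.91 ± 0.43 (SE, adjusted p = 0.00392, limma).

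The largest fall was in WBGene00022709 of cluster D, with scaled log2 signals of -11.68, -7.68 and -10.18 in N2 embryos, against -7.89, -6.69 and -3.61 from 20 °C mothers. In HC445 it had -11.67, -10.71 and -8.09 from 25 °C mothers, against -6.31, -4.18 and -7.43 from 20 °C mothers. Only 2 of the 6 arrays from 25 °C mothers were well above background, so the fitted log2 fold change of -3.98 ± 0.85 (SE, adjusted p = 0.00222, limma) rests partly on background signal. The HC445 groups did not overlap, and in N2 replicate 2 from 25 °C mothers lay slightly above replicate 1 from 20 °C mothers.

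WBGene00022760, also of cluster D, was called lower at -3.62 ± 1.19 (SE, adjusted p = 0.0460, limma) with 1 spot dropped. Its scaled log2 signal was -6.55 and -8.35 in N2 embryos from 25 °C mothers, against -6.13, -5.09 and -0.45 from 20 °C mothers. The dropped spot, replicate 1 from 25 °C mothers, had a deposited value of 11.75, higher than 8.93 and 10.30 and lower than 14.81 in the N2 embryos from 20 °C mothers. In HC445 it had -7.87, -7.46 and -7.74 from 25 °C mothers, against -4.23, -1.86 and -5.97 from 20 °C mothers, without overlap. This call was lost in 23 of 35 other settings.

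In N2 alone 3 of 200 members were called, all lower (1.5%, against 5.47% of all tested probes, and 3.34% for lower calls). The lowest was WBGene00016658 of cluster A, with scaled log2 signals of -7.54, -5.73 and -6.41 from 25 °C mothers, against -2.42, -2.33 and -4.89 from 20 °C mothers. It fell by 3.35 on the log2 scale (SE 0.78, adjusted p = 0.0101, limma) without overlap. In HC445 it had -8.35, -5.99 and -6.99 from 25 °C mothers, against -4.85, -4.78 and -3.93 from 20 °C mothers, also without overlap. The log2 fold change there was -2.59 ± 0.78 (SE, adjusted p = 0.0556, limma). With both strains together it was -2.97 ± 0.55 (SE, adjusted p = 0.000562, limma), the lowest adjusted p of the 17 calls. WBGene00013103, in no cluster, had -7.05, -9.33 and -8.66 in N2 embryos from 25 °C mothers, against -3.95, -6.80 and -6.42 from 20 °C mothers. Its log2 fold change was -2.62 ± 0.69 (SE, adjusted p = 0.0232, limma). It too showed no overlap, and replicate 2 from 25 °C mothers was not well above background.

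In HC445 alone 2 members were called, both lower (1%, against 5.08% of all tested probes, and 2.73% for lower calls). WBGene00022709, whose values stand above, had a log2 fold change of -4.18 ± 1.20 (SE, adjusted p = 0.0436, limma). Of its 3 arrays from 25 °C mothers in HC445, 1 was well above background. Of 35 other settings, 18 lost this call and 1 reversed its direction. WBGene00016503, in no cluster, had scaled log2 signals of -9.73, -9.56 and -8.67 from 25 °C mothers, against -6.68, -6.86 and -7.14 from 20 °C mothers. Its log2 fold change was -2.43 ± 0.66 (SE, adjusted p = 0.0302, limma), and the groups did not overlap. Replicate 2 from 25 °C mothers was not well above background, and 12 of 35 other settings lost the call. Blocking on scan day gave 10 called members in N2, or 5% against 11.1% of all tested probes. In HC445 it gave 9, or 4.5% against 9.71%.

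No member passed the test of a difference between the strains in the response to the mothers' temperature, and neither did any other tested probe (0%). At an unadjusted limma p under 0.05 there were 3 members (1.5%, against 1.22% of all tested probes). The calls in 1 strain alone are thus not shown to be particular to it.

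With grandparents at 25 °C against 20 °C, both strains together, 1 member was called, lower (0.5%, against 0.284% of all tested probes, and 0.232% for lower calls). The median log2 fold change of the members was -0.64, against -0.01 over all tested probes, and 165 of 200 were negative. In cluster A the median was -1.09 and 72 of 73 members were negative. This is a description, since cluster A was built on the 20 °C arrays, where its mean level was 11.06 in N2 embryos from 20 °C grandparents, against 9.14 to 9.73 in the other 3 groups at 20 °C. With slide as a fixed block the median of A was -0.23. The other medians were -0.22 in B, -0.62 in C and -0.45 in D.

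Leaving out 1 array at a time moved these medians over -1.46 to -0.74 in A, -0.61 to 0.082 in B, -1.04 to -0.21 in C and -1.07 to -0.0071 in D. The median of D was -0.0071 without N2 replicate 2 from 25 °C grandparents and -1.07 without N2 replicate 3 from 25 °C grandparents. That of C was -0.21 without N2 replicate 3 from 20 °C grandparents and -1.04 without N2 replicate 1 from 20 °C grandparents. In D the strains differed in sign, with a median of -1.16 in HC445, where 21 of 22 members were negative, and 0.46 in N2, where 6 of 22 were. Leaving out 1 array at a time moved the median of D over -0.88 to 1.13 in N2 and -1.85 to -0.86 in HC445. Within scan days the mean of D in N2 differed by -1.46, -1.15 and 3.38 in replicates 1 to 3, so the positive sign rested on replicate 3. In HC445 it differed by -0.69, -1.10 and -2.22. The difference between strains was not tested for the cluster.

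The called member was WBGene00018343 of cluster A. Its scaled log2 signal was -7.22, -6.42 and -6.29 in N2 embryos from 25 °C grandparents, against -5.34, -3.26 and -4.87 from 20 °C grandparents. In HC445 it was -7.11, -7.51 and -7.39 from 25 °C grandparents, against -5.52, -6.64 and -4.21 from 20 °C grandparents. Neither strain's groups overlapped, and the log2 fold change was -2.02 ± 0.42 (SE, adjusted p = 0.0399, limma). Of 36 other settings, 21 lost this call.

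In N2 alone no member passed the test for the grandparents' temperature (0%, against 0.112% of all tested probes), although 53 (26.5%) had an unadjusted limma p under 0.05, against 4.68% of all tested probes. Of these, 46 were among the 73 members of cluster A, whose median log2 fold change was -1.80. With slide as a fixed block that median was -0.25, but no slide held N2 arrays of both grandparental temperatures. The N2 arrays from 20 °C grandparents helped to choose the members, so neither share nor median is a test of them. Within scan days the mean of cluster A differed by -1.76, -2.75 and -0.78 between 25 °C and 20 °C grandparents in replicates 1 to 3 of N2. Without N2 replicate 1 from 20 °C grandparents, the median was -2.58 and 9 members of A were called, and without replicate 2 it was -1.22 with none called. Over all members that first omission raised the calls to 10, all lower. The array left out had the lowest mean of cluster A in its group, 9.72 against 12.43 and 11.03, so its omission raised the 20 °C side. No share of all tested probes is at hand for that fit, so its calls are a bare count.

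In HC445 alone no member passed either (0%, against 0.0859%), 8 (4%, against 3.62%) had an unadjusted limma p under 0.05, and the median of cluster A was -0.20. Within scan days its mean differed by 0.25, -0.15 and -0.98. The difference between the strains in the effect of grandparental temperature was called in no member and no other tested probe (0%). At an unadjusted limma p under 0.05 there were 17 members (8.5%, against 2.21% of all tested probes), 12 of them in cluster A. Some arrays of this comparison had helped to choose the members, so this share is not a test of them.

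The effect of the mothers' temperature minus that of the grandparents' temperature was called in 4 members (3 higher, 1 lower). This is 2% of members, against 5.3% of all tested probes, of which 2.65% were higher and 2.66% lower. WBGene00016669 led with a difference of 3.56 ± 0.79 (SE, adjusted p = 0.00853, limma). Its scaled log2 signal was -7.39, -6.32 and -5.88 in N2 embryos from 25 °C grandparents, against -6.47, -2.15 and -4.58 from 20 °C grandparents, with every 25 °C value inside or below the 20 °C range. For WBGene00014144 the difference was 2.61 ± 0.61 (SE, adjusted p = 0.0118, limma).

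WBGene00017406 of cluster C had the lowest difference, -2.50 ± 0.65 (SE, adjusted p = 0.0239, limma). Its scaled log2 signal was -6.74, -7.43 and -6.73 in N2 embryos from 25 °C mothers, against -5.90, -5.15 and -5.66 from 20 °C mothers. In N2 embryos from 25 °C grandparents it was -5.46, -6.51 and -5.55, against -8.82, -7.16 and -4.98 from 20 °C grandparents. In N2 the generation 2 groups did not overlap and the generation 3 groups did.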

How the data were processed

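Each of 24 samples had its RNA amplified in 2 in vitro transcription steps and hybridised, as Cy3-labelled RNA, to 1 one-colour Agilent array, per the labels' protocols. Per the file headers, Agilent Feature Extraction 9.5.3.1 made the deposited processed signal, an intensity after background subtraction, and the flags for detection, saturation and outliers. The authors' deposited log2 values share a median of 9.03 in every column. They follow their own array's intensity at a rank correlation of at least 0.999, and no source used here gives their normalization. The number of arrays limits the precision.

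Members were ranked and clustered on the deposited log2 values. For the temperature tests, log2 of the processed signal was reduced by each array's 75th percentile, spots marked as outliers were set to missing, and 8 group means were fitted to the 11637 probes detected above background on all arrays of some group, using limma 3.58.1 (R 4.3.3) with its trended eBayes. Benjamini-Hochberg adjustment ran over all of them, and the tests are two-sided. The fit was tested on simulated data. Alternatives were normalization, background correction, filters, slide, scan day or replicate block, array weights, other rankings and each array left out.

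The members and clusters were chosen with earlier results of these data known. Named were the 2 members of highest SD, the 2 closest to each cluster mean, the 2 probes on either side of the last rank, and per contrast the 2 largest called rises and falls with every measured 25 °C array on 1 side of its strain's 20 °C mean.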

Additional observations from a re-analysis of the deposited data

Results flagged for a closer look

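WBGene00013103, which belongs to no cluster, had fold changes of opposite sign in the 2 strains for the temperature of the grandparents. It was singled out among the members for this difference. Its scaled log2 signal was -6.05, -6.81 and -7.27 in HC445 embryos from 25 °C grandparents, against -7.65, -6.92 and -7.80 from 20 °C grandparents. In N2 embryos it was -7.82, -7.64 and -7.04 from 25 °C grandparents, against -6.98, -5.48 and -5.59 from 20 °C grandparents. Every HC445 array from 25 °C grandparents lay above the mean of its 20 °C group, although the groups overlapped, and every such N2 array lay below. The log2 fold change was 0.75 ± 0.69 (SE) in HC445 and -1.48 ± 0.69 (SE) in N2. Their difference of 2.23 ± 0.97 (SE) did not pass limma's test over all probes (adjusted p = 1.0).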

How the results depend on the processing

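For mothers at 25 °C, both strains together, 17 members were called. The count was 10 with normexp and quantile normalization and 11 with quantile normalization (5% and 5.5%, against 13.9% and 14.5% of all tested probes). It was 9 with only probes above background on all arrays (5.42% against 16.6%). With slide as a fixed block it was 2 (1% against 0.352%), and without arrays with a spike-in note 5 (2.5% against 7.34%). It was 8 of the first 100 members and 48 of the first 400 (8% and 12%, against 14%). Without the scan day of replicate 2 it was 9 (4.5% against 7.67%). In N2, where 3 were called, it was 19 with slide random (a random block; 9.5% of members against 12.2% of all tested probes) and 16 with it fixed (8% against 2.7%), and 0 without the spike-in arrays or that scan day. It was 5 when members were ranked by median absolute deviation (2.5% against 5.47%), and 17 of the first 400 (4.25% against 5.47%). The 3 main calls in N2 were lower, but normexp and quantile normalization each gave 4, 2 higher and 2 lower (2%, against 6.23% and 5.65%). Deposited values gave 3, 2 higher and 1 lower (1.5% against 5.62%). In HC445, where 2 were called, both lower, it was 1, higher, with normexp or deposited values (0.5%, against 5.09% and 5.35%). It was 1, lower, without a filter on dim probes (0.5% against 3.55%) or with probes above background on all arrays (0.602% against 6.58%). It was also 1, lower, without the spike-in arrays (0.5% against 1.4%). It was 0 with quantile normalization, slide fixed, the first 100 members, that scan day left out or the 2 high arrays of cluster D left out. It was 5 with slide random (2.5% against 6.3%) and 8 with array weights (4% against 7.7%). It was 4 ranked by median absolute deviation (2% against 5.08%) and 13 of the first 400 (3.25% against 5.08%).

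For grandparents at 25 °C, both strains, 1 member was called. The count was 0 with normexp, quantile or deposited values, slide fixed, the spike-in arrays or that scan day left out, ranking around group means, and the first 100 members. It was 2 (1%) with slide random, array weights or median absolute deviation, against 0.602%, 0.619% and 0.284% of all tested probes. It was 3 of the first 400 (0.75% against 0.284%). In HC445 it was 1 by median absolute deviation and 1 of the first 400 (0.5% and 0.25%, against 0.0859%). For the difference between the mothers' and grandparents' effects, 4 were called. It was 8 with slide random (4% against 10.2%) and 2 with slide fixed (1% against 0.404%). It was 0 without the spike-in arrays or without that scan day. It was 2 of the first 100 and 12 of the first 400 (2% and 3%, against 5.3%). The strain difference in the grandparental effect had 2 calls with slide fixed (1% against 0.155%).

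The correlations between same-numbered 25 °C and 20 °C arrays of a strain and generation were -0.07 to 0.30, and 2 of the 4 pairs of groups had a value of 0.1 or less, so the numbers were not taken as pairing samples, although they match the scan days. With the replicate number as a block the calls for mothers were 29, 10 in N2 and 9 in HC445. For grandparents they were 3 (1.5%, against 0.61% of all tested probes), 2 in N2 (1% against 0.232%) and 0 in HC445. For the difference they were 7 (3.5% against 10.3%).

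Leaving out 1 array at a time gave 10 to 20 calls for mothers, 2 to 6 in N2 and 0 to 4 in HC445, 0 to 2 for grandparents, 0 to 10 in N2 and 0 in HC445, 3 to 5 for the difference, and 0 for both strain differences. For mothers it was 11 without N2 replicate 1 from 25 °C mothers or HC445 replicate 2 from 20 °C mothers, and 10 without HC445 replicate 3 from 25 °C mothers. In N2 it was 6 without HC445 replicate 2 from 25 °C mothers or N2 replicate 1 from 20 °C grandparents. In HC445 it was 0 without replicate 1 or 2 from 20 °C mothers or replicate 1 from 25 °C mothers, 1 without N2 replicate 3 from 25 °C mothers or HC445 replicate 1 from 20 °C grandparents, and 4 without N2 replicate 3 from 20 °C mothers or N2 replicate 1 from 20 °C grandparents. The single grandparental call was lost without any of 14 arrays and became 2 without N2 replicate 3 from 20 °C mothers. No share of all tested probes is at hand for these omissions, so the counts show only how far the calls moved. Rankings that left out 1 array gave 14 to 20, 2 to 4, 1 to 2, 0 to 1 and 2 to 5 calls for mothers (both, N2, HC445), grandparents and the difference.

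WBGene00022709 turned to a log2 fold change of 0.38 in HC445 with slide fixed, where no slide held HC445 arrays from mothers at both temperatures. In that fit the 2 high arrays of cluster D were each alone on their slide and added nothing. The cluster medians for mothers turned to 0.65 in C and 0.45 in D with slide fixed, 0.061 in B with array weights and 0.048 in D without its 2 high arrays, and for grandparents to 1.15 in C and 1.00 in D with slide fixed. Without 1 array, B ranged over -0.80 to 0.058 for mothers and -0.61 to 0.082 for grandparents. The cause of these changes was not tested. The omission of those 2 arrays, that of a whole scan day and all cluster medians were added after seeing the data.

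The median SD of members on the 25 °C-ancestor arrays was 3.44 times that of the other probes, 3.67 times with 75th percentile scaling and 3.99 times around group means. Other rankings shared 165 (around group means), 178 (scaled values) and 127 (median absolute deviation) of the 200 members, and 169 to 192 without 1 array. Mean r within clusters on those arrays was 0.54 in the main division, 0.61 at height 0.3, 0.43 at height 0.7, 0.59 on scaled values and 0.63 with group means removed.

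The number of arrays limits the precision, and signals near background limit the size of the falls.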
